A study of Mus musculus with 6 samples.

Results

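The genes described here are 10 members of the AP-1 and immediate early response, taken by symbol from the 18491 genes of the deposited table: the Fos family genes Fos, Fosb and Fosl2, the Jun family genes Jun, Junb and Jund, the related factor genes Atf3 and Egr1, the early response gene Ier2, and the phosphatase gene Dusp1. All 10 were in the table, and all 10 passed the filter on low counts that left 15474 genes. The RNA came from mouse bone marrow haematopoietic stem progenitor cells, purified by fluorescence-activated sorting 8 months after 3 doses of the interferon inducer poly(I:C). There were 3 Robo1 knockout (KO) libraries and 3 wild-type (WT) libraries. In the knockout the Cre recombinase stands under the interferon-inducible Mx1 promoter, which poly(I:C) switches on and which is active in many tissues besides blood. The design text describes this knockout, whereas other labels of the same libraries describe a knockdown. The titles name a control shRNA for WT and an shRNA to ROBO1 for KO, and the treatment field names a scramble shRNA for WT and, in 1 KO library each, knockdown of ROBO1, ROBO2 or ROBO3. Groups here follow each library's description (KO-1 to KO-3, WT-1 to WT-3), the labels give neither strain nor age, and Robo1 itself was not analysed here, so the KO and WT labels were not checked against it. No label ties a library to an animal, so p-values reflect the spread among these libraries alone, and that spread may be technical.

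AP-1 is a dimer. Fos family proteins pair with Jun family proteins through leucine zippers and bind DNA at the sequence TGANTCA, and Jun proteins also pair with one another and with ATF proteins. Immediate early genes are transcribed within minutes of a growth factor, cytokine or stress signal without new protein synthesis, and their mRNAs are short-lived. In haematopoiesis AP-1 factors are known for roles in myeloid differentiation and in the control of stem cell proliferation, JunB and Egr1 among them. In bulk RNA, more transcript per cell and more cells that carry it cannot be told apart.

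The direction of many genes in these libraries depended on how libraries were scaled. The 100 most abundant genes took 59.7 to 60.8% of counts in KO and 42.3 to 43.3% in WT, with total counts of 42235077 to 57058267 in KO and 44578916 to 58106099 in WT. Levels are given in CPM (counts scaled to a common library size) scaled by TMM, which sets the bulk of genes level between libraries, and fold changes come from edgeR's quasi-likelihood test with p-values adjusted over all genes tested (called under 0.05). Scaling by total counts alone shifted the median log2 fold change of all genes tested by -1.13, to -1.22, so the calls on the 10 genes and on the lists are also given on that scale. Markers of other cells moved with the groups, given here with TMM. Of 10 eosinophil and basophil markers 8 were higher in KO, and their summed level was 45136 to 50842 CPM in KO against 6015 to 7190 CPM in WT. Of 10 neutrophil and granulocyte precursor markers 7 were higher, at 265336 to 281222 CPM in KO against 84942 to 95296 CPM in WT. Of 10 B and plasma cell markers 2 were higher and 4 lower, at 35535 to 37401 CPM in KO against 11224 to 12000 CPM in WT, and of 9 tested monocyte and macrophage markers 3 were higher and 1 lower, at 3813 to 4193 CPM against 1103 to 1205 CPM. Of 10 erythroid markers 3 were higher and 2 lower, at 3139 to 3720 CPM in KO against 1027 to 1336 CPM in WT. Among 7 tested T and NK cell markers 1 was higher and 1 lower, at 6329 to 6743 CPM in KO against 3372 to 3437 CPM in WT. Single genes made up most of several of these sums. Igkc averaged 35193 CPM in KO and 10848 CPM in WT, while Cd79a, Cd79b, Ebf1 and Xbp1 were called lower. Nkg7 averaged 6501 CPM in KO and 3380 CPM in WT, while Lck was called lower. Hba-a1 averaged 2450 CPM in KO and 781 CPM in WT, while Klf1 and Rhd were called lower. Of 10 megakaryocyte markers 1 was higher and 3 lower, at 184 to 210 CPM in KO and 176 to 189 CPM in WT, and of 4 tested stromal and endothelial markers 0 were called, at 12.9 to 17.8 CPM in KO and 16.9 to 18.9 CPM in WT. With total counts 5 eosinophil and basophil markers were higher and 2 lower, 5 neutrophil markers higher and 3 lower, and 2 monocyte markers higher and 5 lower. On that scale 1 B and plasma cell marker was higher and 7 lower, and 2 erythroid markers were higher and 7 lower. T and NK cell markers were 0 higher and 7 lower, megakaryocyte markers 0 and 9, and stromal and endothelial markers 0 and 3. Over all genes tested 17.2% were called higher and 14.4% lower with TMM, and 4.23% and 70.7% with total counts. No marker with a row in the table was at 0 in all 6 libraries, and the part of these cells in the results below was not tested. Of the 10 stem and progenitor markers 1 was higher and 3 lower with TMM. With total counts 0 were higher and 9 lower, where 70.7% of all genes tested were lower. With TMM these 10 markers summed to 169 to 176 CPM in KO and 167 to 172 CPM in WT. Among them Cd34 stood at 102 CPM in KO and 106 CPM in WT and Kit at 16.9 CPM in KO and 13.7 CPM in WT, so markers of the labelled cell type were present in both groups.

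Fos, Jun and Junb were higher in KO under both scalings. Ier2 was lower in KO under both. Fosb and Atf3 changed sides, called higher on the TMM scale and lower on the other, and Jund, Egr1, Dusp1 and Fosl2 did not pass with TMM. With TMM 5 of the 10 genes were called higher, where 17.2% of all genes tested were, and 1 was called lower, where 14.4% were. With total counts 3 were called higher, against 4.23% of all genes, and 6 lower, against 70.7%. With TMM the KO libraries lay wholly above WT in 5 of the genes (22.2% of all genes tested), wholly below in 1 (24.4%) and overlapped WT in 4 (53.4%). With total counts they lay above in 3 (4.85% of all), below in 6 (76.1%) and overlapped in 1 (19.1%). The median log2 fold change of the 10 was 0.41 with TMM and -0.72 with total counts, beside -0.09 and -1.22 over all genes tested.

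**Figure D1:**
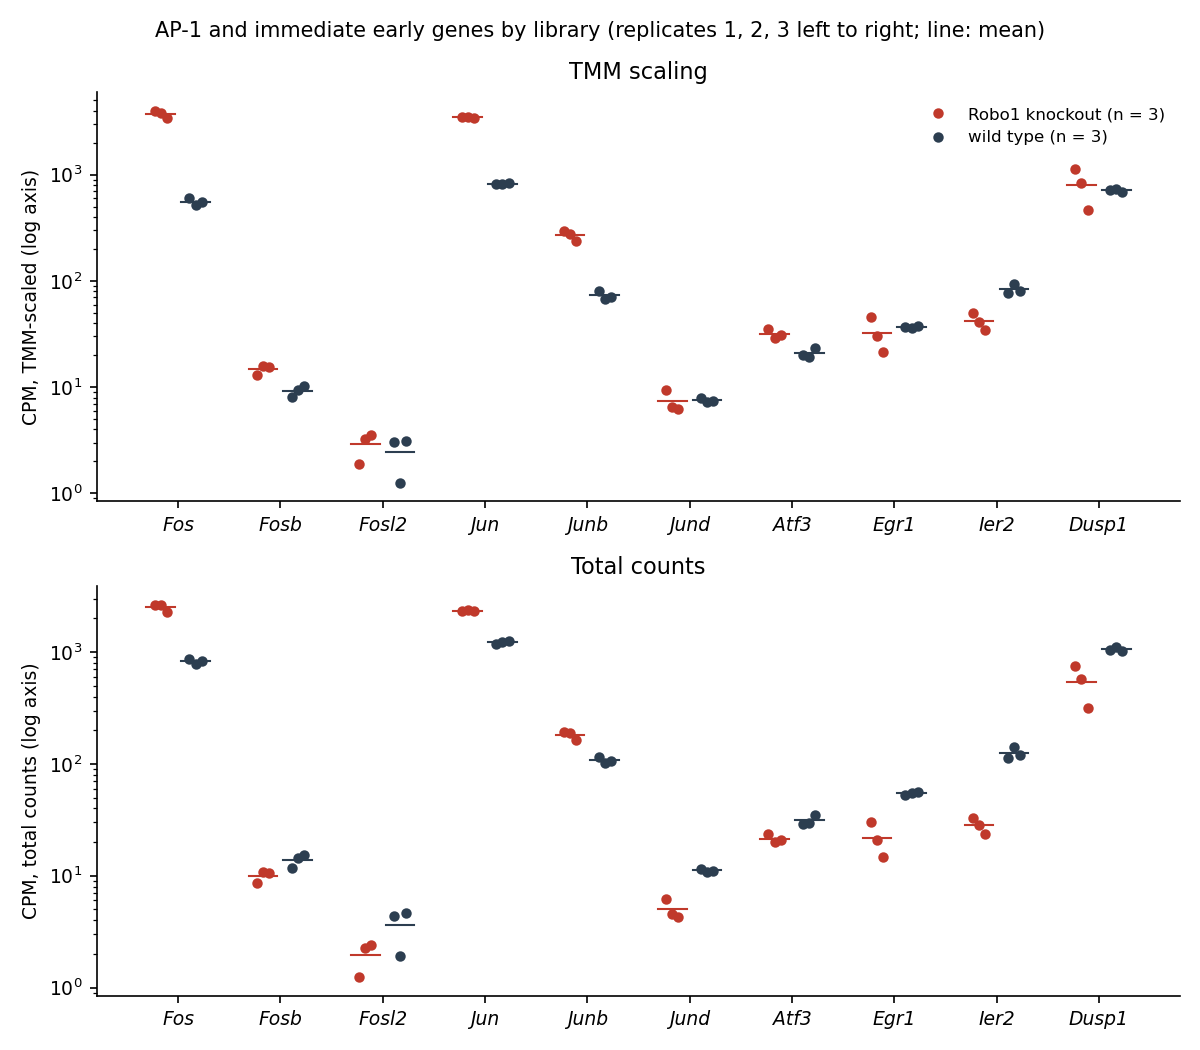
CPM (log axis) of the 10 genes in each library, scaled by TMM above and by total counts below, with Robo1 knockout left of wild type and a line at each mean. Fos, Jun and Junb lie above wild type in every knockout library in both panels, Ier2 lies below in both, and Dusp1 and Egr1 spread out among the knockout libraries.

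Fos (ENSMUSG00000021250, chr12:85473890-85477273, plus strand; GRCm38, GENCODE vM21) encodes c-Fos, which cannot form a stable homodimer and binds DNA as the partner of a Jun protein. It stood at 4006, 3811 and 3383 CPM in KO, against 603, 517 and 556 CPM in WT. The groups did not overlap, and the lowest KO library was several-fold above the highest WT library. The log2 fold change was 2.74 (SE 0.09, edgeR adjusted p = 5.35e-08), or 6.68-fold. With total counts Fos stood at 2644, 2610 and 2301 CPM in KO against 866, 785 and 828 CPM in WT, 3.05-fold higher (log2 1.61, SE 0.07, edgeR adjusted p = 5.86e-07). Of all genes tested, 0.685% had a larger log2 fold change with TMM.

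Jun (ENSMUSG00000052684, chr4:95049034-95052222, minus strand) encodes c-Jun, the partner of c-Fos, which is activated by phosphorylation by the JNK kinases. It was at 3496, 3475 and 3402 CPM in KO, against 822, 813 and 835 CPM in WT. With TMM the replicates lay closer together than for any other of the 10 genes, with a coefficient of variation of 1.42% in KO and 1.36% in WT. With total counts it was 1.74% in KO and 2.82% in WT, where Egr1 (2.72%) and Jund (2.8%) were slightly lower. The log2 fold change of Jun was 2.07 (SE 0.05, edgeR adjusted p = 3.26e-08) with TMM and 0.94 (SE 0.05, edgeR adjusted p = 7.37e-07) with total counts. An annotated antisense gene, Junos, shares 232 exon bases with Jun, and no source used here says whether counting used strand.

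Junb (ENSMUSG00000052837, chr8:84974484-84978718, minus strand) encodes JunB, a weaker activator than c-Jun that restrains myeloid proliferation in mice. Its level was 293, 276 and 238 CPM in KO, against 80.3, 67.5 and 71.0 CPM in WT. Every KO library lay above every WT library. The log2 fold change was 1.88 (SE 0.10, edgeR adjusted p = 6.87e-07) with TMM and 0.75 (SE 0.08, edgeR adjusted p = 2.99e-05) with total counts. Junb shares 173 exon bases with Prdx2, a neighbour on the opposite strand.

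The upstream stretches of Fos, Jun and Junb, which rose under both scalings, are shown beside that of Dusp1, which did not. Each is the 150 bases before the RefSeq start (GRCm38.p6), on the strand of the gene, with the cAMP response element core TGACG (either strand) and the Jun site TGACATCA in capitals.
Fos, chr12:85473740-85473889, plus strand: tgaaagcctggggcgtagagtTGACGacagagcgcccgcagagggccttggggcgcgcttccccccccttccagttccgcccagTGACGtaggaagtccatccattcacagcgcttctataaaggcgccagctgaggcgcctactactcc
Jun, chr4:95052223-95052372, minus strand: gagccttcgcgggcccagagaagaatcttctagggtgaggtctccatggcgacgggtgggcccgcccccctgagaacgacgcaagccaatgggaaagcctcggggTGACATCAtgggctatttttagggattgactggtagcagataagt
Junb, chr8:84978749-84978898, minus strand: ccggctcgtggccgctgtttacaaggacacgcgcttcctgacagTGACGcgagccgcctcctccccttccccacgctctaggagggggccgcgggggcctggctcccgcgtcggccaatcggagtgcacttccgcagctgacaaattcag
Dusp1, chr17:26508473-26508622, minus strand: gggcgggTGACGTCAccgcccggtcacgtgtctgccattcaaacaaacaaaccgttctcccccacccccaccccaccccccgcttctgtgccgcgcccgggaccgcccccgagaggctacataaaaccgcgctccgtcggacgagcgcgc

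RefSeq promoter windows, which reach from 250 bases before a start to 50 after it, were present for 8 of the 10 genes, all but Egr1 and Ier2. TGACG, searched on both strands, was in 5 of these 8 windows (Fos, Fosb, Junb, Atf3 and Dusp1) and in 20.8% of all 32851 windows. The full element TGACGTCA, which contains TGACG on each strand, was in the Dusp1 window alone among the 8, and in 1.79% of all windows. TGACATCA was in the Jun window alone among the 8, and in 3.62% of all. The AP-1 sequence TGANTCA was in 0 of the 8 windows and in 7.81% of all. The GC box GGGCGG was in 6 of the 8 and in 35.7% of all. Of the stretches shown, those of Fos, Junb and Dusp1 hold TGACG and that of Jun does not. The Jund window lies upstream of the GENCODE start of Jund, so it may not be the promoter of that transcript. The Junb stretch shown also ends short of the GENCODE start of Junb. The Dusp1 stretch lies inside the GENCODE span of Dusp1, not at its upstream end.

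Fosb and Fosl2, the other Fos family genes, were far less abundant than Fos. Fosb, whose protein also exists as the stable truncated form deltaFosB, was at 13.0, 15.7 and 15.6 CPM in KO, against 8.06, 9.49 and 10.2 CPM in WT. The groups did not overlap, and the log2 fold change was 0.67 (SE 0.13, edgeR adjusted p = 0.00377). With total counts the order turned round, with 8.57, 10.8 and 10.6 CPM in KO against 11.6, 14.4 and 15.2 CPM in WT (log2 -0.46, SE 0.15, edgeR adjusted p = 0.0165). That call with total counts was lost without KO replicate 1 (adjusted p = 0.0643), without WT replicate 2 (adjusted p = 0.0557) or without WT replicate 3 (adjusted p = 0.0749).

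Fosl2, which encodes Fra-2, was the least abundant of the 10, at 71, 116 and 101 counts in KO and 195, 103 and 268 counts in WT. With TMM this was 1.89, 3.28 and 3.52 CPM in KO against 3.05, 1.26 and 3.09 CPM in WT, and the groups overlapped. The log2 fold change was 0.23 (SE 0.37, edgeR adjusted p = 0.697). The coefficient of variation was 30.5% in KO and 42.5% in WT, the widest of the 10 genes in WT. With total counts it was -0.89 (SE 0.37, edgeR adjusted p = 0.0527), and without WT replicate 2 that became -1.20, a call (edgeR adjusted p = 0.00852).

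Jund (ENSMUSG00000071076, chr8:70698949-70700616, plus strand) encodes JunD, the Jun protein that many resting cells express steadily. It stood at 9.37, 6.58 and 6.30 CPM in KO and 8.00, 7.18 and 7.40 CPM in WT with TMM. The KO values lay on both sides of the WT values, and the difference on the log2 scale was -0.02 (SE 0.17, edgeR adjusted p = 0.954). With total counts it was lower in KO, at 6.19, 4.51 and 4.29 CPM against 11.5, 10.9 and 11.0 CPM (log2 -1.15, SE 0.16, edgeR adjusted p = 0.000134). The antisense gene Gm11175 shares 877 of the 1668 exon bases of Jund, more than any other overlap among the 10 genes. The part of this overlap in the level of Jund, in CPM or FPKM, was not tested.

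Atf3 (ENSMUSG00000026628, chr1:191170296-191218039, minus strand) encodes a stress-induced ATF family protein that can pair with Jun and as a homodimer represses transcription. It was at 35.6, 29.0 and 30.8 CPM in KO, against 20.3, 19.4 and 23.6 CPM in WT. The groups did not overlap, and the log2 fold change was 0.59 (SE 0.11, edgeR adjusted p = 0.00315). With total counts Atf3 was lower in KO, at 23.5, 19.9 and 21.0 CPM against 29.2, 29.5 and 35.1 CPM (log2 -0.54, SE 0.11, edgeR adjusted p = 0.00148).

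Ier2 (ENSMUSG00000053560, chr8:84661331-84662852, minus strand), an early response gene whose product is a nuclear protein, was the only one of the 10 called lower with TMM. It stood at 50, 41.3 and 34.7 CPM in KO, against 77.7, 93.3 and 80.7 CPM in WT. No KO library reached the WT range, and the log2 fold change was -1.0 (SE 0.13, edgeR adjusted p = 0.000382). With total counts the values were 33.0, 28.3 and 23.6 CPM in KO against 112, 141 and 120 CPM in WT (log2 -2.14, SE 0.14, edgeR adjusted p = 1.2e-06). Of all genes tested, 91.6% had a higher log2 fold change with TMM.

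Egr1 encodes a zinc finger factor induced through serum response elements, which in mice holds stem cells in quiescence. With TMM it stood at 45.6, 30.5 and 21.4 CPM in KO, and at 37.0, 36.0 and 37.7 CPM in WT. KO replicate 1 was above the WT libraries and the other KO libraries were below them. The log2 fold change was -0.18 (SE 0.22, edgeR adjusted p = 0.588), and without KO replicate 1 it was -0.50, a call (edgeR adjusted p = 0.0337). With total counts Egr1 was lower in KO, at 30.1, 20.9 and 14.6 CPM against 53.2, 54.7 and 56.2 CPM (log2 -1.32, SE 0.21, edgeR adjusted p = 0.000332).

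Dusp1 (ENSMUSG00000024190, chr17:26505590-26562128, minus strand) encodes a nuclear phosphatase that inactivates the MAP kinases p38 and JNK and is itself induced by them. With TMM it stood at 1125, 833 and 465 CPM in KO, and at 721, 735 and 683 CPM in WT. KO replicates 1 and 2 were above every WT library and KO replicate 3 was below. The log2 fold change was 0.18 (SE 0.25, edgeR adjusted p = 0.639), and without KO replicate 3 it was 0.46, a call (edgeR adjusted p = 0.0192). With total counts Dusp1 was lower in KO, at 743, 570 and 316 CPM against 1036, 1115 and 1018 CPM (log2 -0.96, SE 0.24, edgeR adjusted p = 0.00498).

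**Figure D2:**
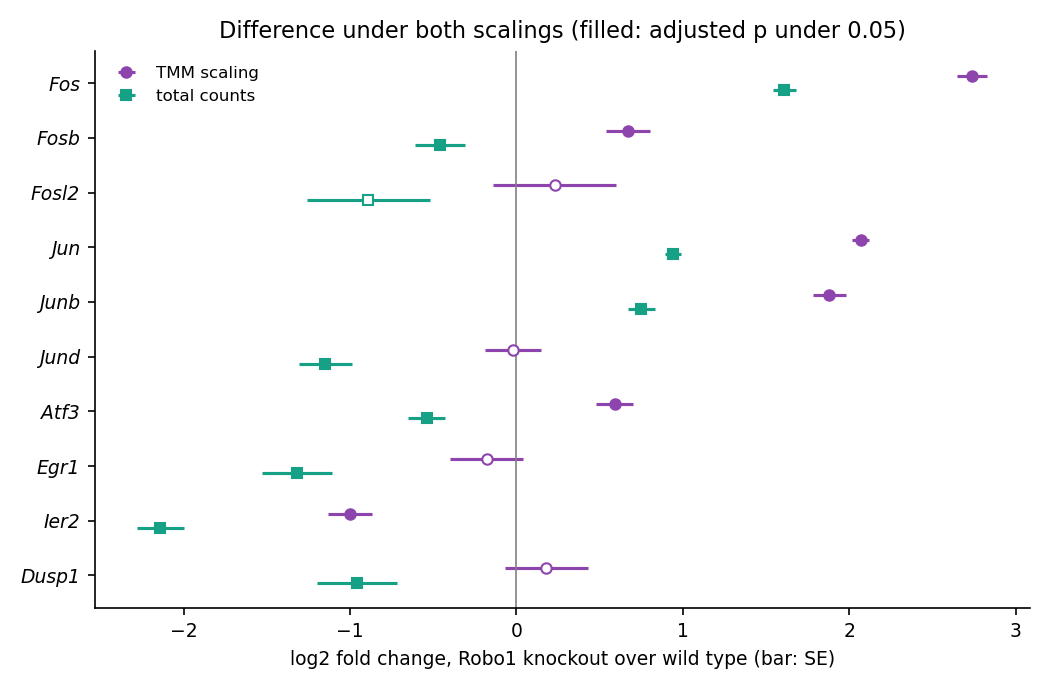
Log2 fold change of Robo1 knockout over wild type for the 10 genes, with TMM (circles) and with total counts (squares), and bars of 1 SE from edgeR's fit of 6 libraries; filled symbols passed an adjusted p of 0.05. Fos, Jun and Junb lie right of 0 and Ier2 left of 0 under both scalings, while Fosb and Atf3 change sides.

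The spread among KO libraries was wide for Dusp1 and Egr1 and narrow for Jun. Dusp1 had a coefficient of variation of 41.0% in KO and 3.76% in WT. For Egr1 it was 37.5% in KO and 2.24% in WT. Of 11443 genes with a mean of at least 1 CPM, 6.27% had a larger coefficient in KO than Dusp1 and 8.22% a larger one than Egr1, and the median over these genes was 11.8% in KO and 10% in WT. With TMM, KO replicate 1 was highest and KO replicate 3 lowest of the KO libraries in 7 of the 10 genes, as in 22.0% of the 11443. The 7 were Fos, Jun, Junb, Jund, Egr1, Ier2 and Dusp1. With total counts Jun did not keep this order, at 2307, 2381 and 2314 CPM in KO. The order was not among the planned comparisons and was not tested. Total counts were 57058267 in KO replicate 1, 51654303 in KO replicate 2 and 42235077 in KO replicate 3, and the part of depth in this spread was not tested.

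Ratios between genes of 1 library do not depend on library scaling. Fos had 1.15, 1.10 and 0.994 counts per Jun count in KO, against 0.734, 0.636 and 0.666 in WT. Dusp1 had 0.281, 0.218 and 0.137 counts per Fos count in KO, against 1.2, 1.42 and 1.23 in WT. In WT, then, Dusp1 reads outnumbered Fos reads, and in KO Fos reads outnumbered Dusp1 reads severalfold. Ier2 had 0.0125, 0.0108 and 0.0102 counts per Fos count in KO against 0.129, 0.180 and 0.145 in WT, a 13.4-fold lower ratio in KO. Junb kept nearly the same ratio to Jun, at 0.0838, 0.0794 and 0.0701 in KO against 0.0977, 0.0830 and 0.0850 in WT. These 2 sets overlapped (exact permutation p = 0.2, two-sided, n = 3 each). In 8 of the 9 ratios computed the groups did not overlap, and each of these had an exact permutation p = 0.1, the smallest that 3 against 3 libraries allow, and an adjusted p = 0.113 over the 9. Thus no ratio could pass 0.05 in this design. Each of the 9 ratios holds Fos or Jun, which rose under both scalings, so the lack of overlap in part restates their change. How often other genes over Fos or Jun separate the groups was not computed. The KO minus WT difference of the log2 ratio was -2.06 for Fosb over Fos, -2.45 for Fosl2 over Fos, -2.99 for Egr1 over Fos, -2.11 for Jund over Jun and -1.48 for Atf3 over Jun.

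**Figure D3:**
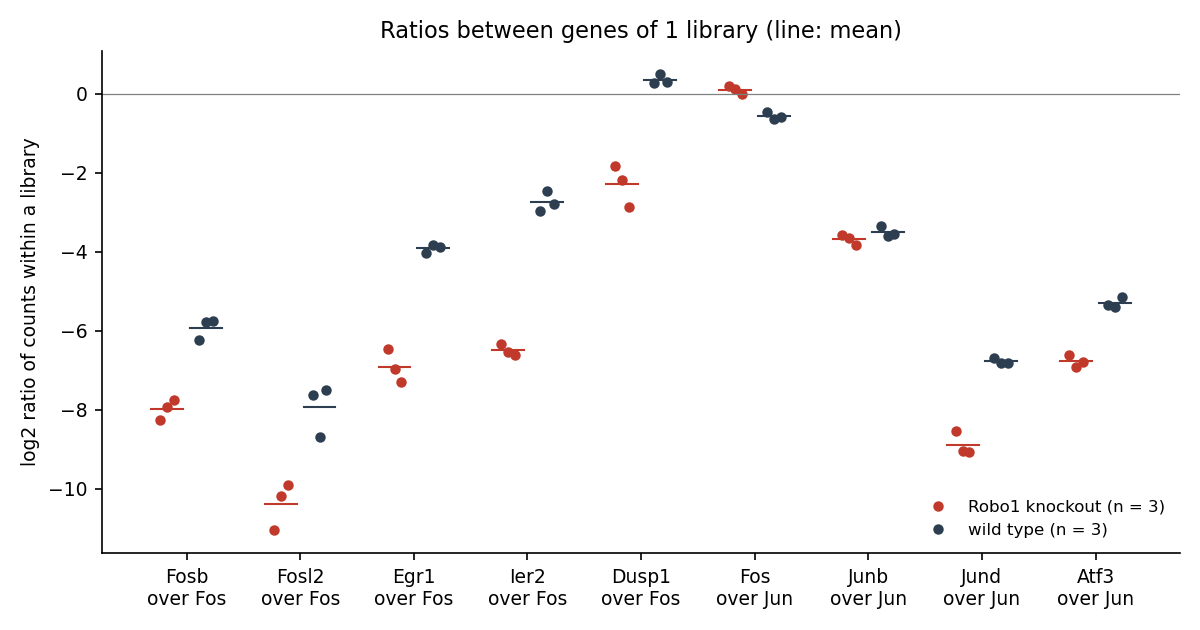
Log2 ratio of the counts of 2 genes in the same library, for 9 ratios, with Robo1 knockout left of wild type, a point per library and a line at each mean. Fos over Jun is higher in every knockout library, Junb over Jun overlaps between groups, and the other 7 ratios are lower in every knockout library.

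Per length, the order of the genes also differed. The deposited FPKM values allow for gene length and, like total counts, for library size. Fos had 1053, 1027 and 912 FPKM in KO, against 337, 314 and 331 FPKM in WT. Jun had 607, 618 and 606 FPKM in KO, against 304, 324 and 328 FPKM in WT. Dusp1 had 313, 235 and 133 FPKM in KO, against 419, 465 and 428 FPKM in WT. In KO the order was Fos, Jun, Dusp1, with no overlap between neighbours. In WT it was Dusp1, Fos, Jun, and there Fos and Jun did not differ beyond their spread. Junb had 89.7, 86.6 and 74.8 FPKM in KO, against 52.3, 47.5 and 49.2 FPKM in WT. Ier2 had 18.1, 15.4 and 12.9 FPKM in KO, against 60, 77.9 and 66.4 FPKM in WT. Junb thus stood above Ier2 in KO and below it in WT, with no overlap in either group. The remaining genes kept 1 order by mean FPKM in both groups, which was Atf3, Egr1, Jund, Fosb and Fosl2, and in KO the Egr1, Jund and Fosb values of neighbouring genes overlapped.

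Of the FPKM summed over the 10 genes, Fos took 51.1 ± 0.955% in KO and 26.6 ± 1.59% in WT (mean ± SD, n = 3 each). Dusp1 took 11.4 ± 3.68% in KO and 35.4 ± 1.28% in WT. Jun took 31.4 ± 2.86% in KO and 25.8 ± 0.640% in WT. Within the Jun family the make-up moved less: Jun took 87.6 ± 1.01% of Jun family FPKM in KO and 85.2 ± 1.08% in WT. Junb took 12 ± 0.949% in KO and 13.3 ± 1.02% in WT, and Jund 0.358 ± 0.0742% in KO and 1.49 ± 0.0639% in WT. Within the Fos family, Fos itself took 99.7 ± 0.0501% in KO and 98.8 ± 0.157% in WT.

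**Figure D4:**
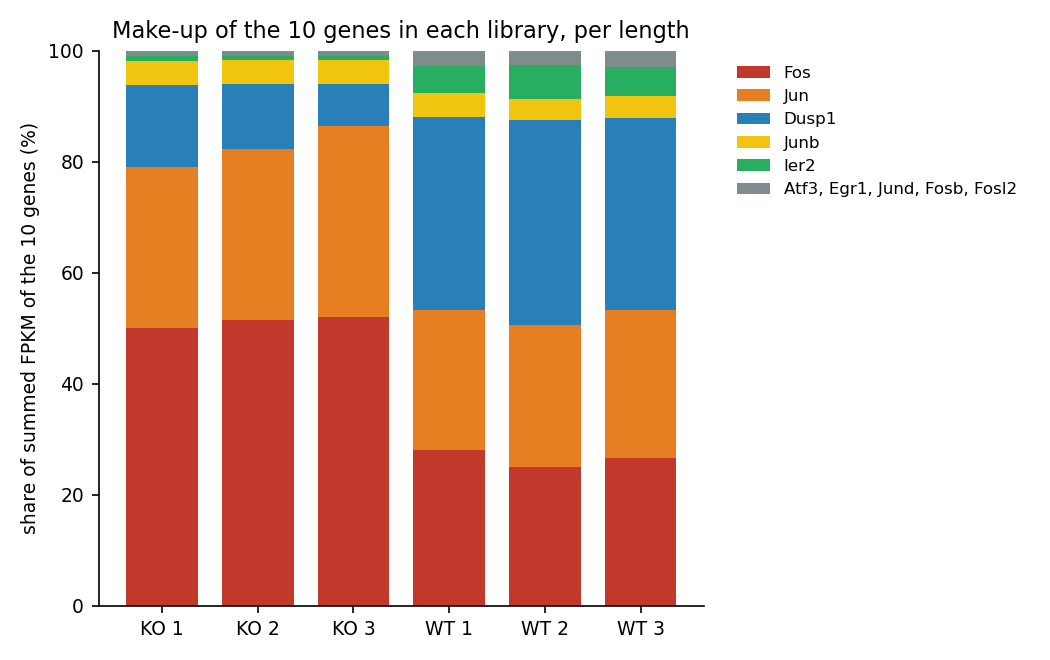
Share of each gene in the summed FPKM of the 10 genes, in percent, as 1 stacked bar per library, with the 3 Robo1 knockout libraries left of the 3 wild-type libraries. Fos takes 50.1 to 52.0% in knockout against 24.9 to 28.0% in wild type, and Dusp1 takes 7.57 to 14.9% against 34.6 to 36.9%.

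Some of the genes share features of structure that the choice by name did not use. Jun, Junb, Jund and Ier2 are single-exon genes. With TMM Jun and Junb rose, Ier2 fell, and Jund stood at a log2 fold change of -0.02. A link between exon number and the changes was not tested. Over the 366 single-exon coding genes tested, the TMM log2 fold changes had a median of 0.14, and over 11537 coding genes with several exons the median was -0.15 (-0.98 and -1.28 with total counts). The pentamer ATTTA, which AU-rich element binding proteins recognise in short-lived mRNAs, was counted in the 3′ UTR of the longest coding transcript. Dusp1 had 5.80, Fos 4.91, Junb 4.12 and Jun 3.24 copies per kilobase, against a median of 1.26 over 11756 tested genes. Atf3 had 2.53 copies per kilobase, Jund 1.88, Fosl2 1.72, Egr1 1.64 and Fosb 0.466. Ier2 had 0 copies in 755 bases, and 68.3% of the 11756 genes had the pentamer. A link between these copies and the changes was not tested. Stretches of 30 bases with 2 copies, in capitals, are shown for the 3 most abundant genes.
Fos, chromosome 12: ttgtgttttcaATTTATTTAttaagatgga
Jun, chromosome 4: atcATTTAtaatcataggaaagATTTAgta
Dusp1, chromosome 17: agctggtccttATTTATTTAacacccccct
Fos and Dusp1 share the overlapping pair ATTTATTTA.

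Beyond the 10 genes, other immediate early genes rose in part with TMM. Of 28 tested, 11 were called higher, 0 lower and 17 did not pass, at a median log2 fold change of 0.47, where 17.2% of all genes were called higher and 14.4% lower. Klf6, a zinc finger factor, averaged 1380 ± 93.6 CPM in KO and 437 ± 7.52 CPM in WT (log2 1.66, SE 0.06, edgeR adjusted p = 1.38e-07). Ier3, which protects cells from death, averaged 44.7 ± 9.62 CPM in KO and 9.79 ± 0.901 CPM in WT (log2 2.19, SE 0.16, edgeR adjusted p = 6.05e-06). These 2 genes were the only ones of the list called higher with total counts (log2 0.53 and 1.05). On that scale 14 were called lower and the median was -0.67, where 70.7% of all genes were lower and the median of all was -1.22. Klf2, a factor of cell quiescence, was at a log2 fold change of 1.16 with TMM and 0.03 with total counts, and Myc, a driver of cell growth, at 1.07 and -0.06.

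Of 19 other AP-1 and related leucine zipper factors tested, 4 were called higher with TMM, 1 lower and 14 did not pass (median 0.05). With total counts 0 were called higher and 16 lower (median -1.09), where 70.7% of all genes were lower. The 4 were Atf4, the effector of the integrated stress response (log2 0.81, SE 0.08, edgeR adjusted p = 5.84e-05), Ddit3, its target CHOP (0.53), Nfe2l2, the oxidative stress factor NRF2 (0.38), and Mafg, a small Maf partner of NRF2 (0.28). With total counts each of these 4 was called lower. With TMM 17.2% of all genes were called higher and 14.4% lower.

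Among MAP kinases and the serum response factors that act on early promoters, 4 of 22 were called higher, 3 lower and 15 did not pass with TMM, at a median of -0.28, beside 17.2% of all genes higher and 14.4% lower. Map2k3, a kinase that activates p38, averaged 91.8 ± 9.80 CPM in KO and 41.6 ± 1.65 CPM in WT (log2 1.14, SE 0.09, edgeR adjusted p = 1.12e-05), but stood at 0.00 with total counts. Mapk14, which encodes p38 alpha, fell (log2 -0.72, SE 0.13, edgeR adjusted p = 0.002), also with total counts (-1.86). Srf, the serum response factor, was low in both groups, at 1.31 ± 0.503 CPM in KO and 0.394 ± 0.0263 CPM in WT (log2 1.73, SE 0.42, edgeR adjusted p = 0.0128), and Mrtfa, its actin-regulated coactivator, was at 0.66. Neither Srf (0.59) nor any other gene of this list was called higher with total counts, and 19 were called lower (median -1.42), beside 70.7% of all genes.

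Of 15 dual-specificity phosphatases and Sprouty inhibitors, which damp MAP kinase signalling, 1 was called higher and 1 lower, and the list's median was 0.02 with TMM, where 17.2% of all genes were higher and 14.4% lower. With total counts 0 were higher and 7 lower (median -1.11), beside 4.23% and 70.7% of all genes. The ERK phosphatase gene Dusp6 rose (log2 0.90, SE 0.14, edgeR adjusted p = 9.41e-04) and Dusp3 fell (-0.61, SE 0.09, edgeR adjusted p = 7.86e-04), while Dusp10 (0.85) and Dusp8 (0.79) did not pass. With total counts Dusp6 stood at -0.24 and did not pass. Of 8 AU-rich element binding proteins 1 was called higher and 1 lower, and the list's median was -0.02 with TMM. With total counts 1 was higher and 7 lower, at a median of -1.16, beside 4.23% and 70.7% of all genes. Zfp36, which encodes tristetraprolin, a protein that speeds the decay of ATTTA-bearing mRNAs and is itself an early response gene, averaged 127 ± 3.81 CPM in KO and 51.6 ± 2.08 CPM in WT (log2 1.30, SE 0.07, edgeR adjusted p = 6.61e-07) and was also called higher with total counts (0.17, edgeR adjusted p = 0.0471). Tial1 fell (-0.55), and Elavl1 (-0.21) and Zfp36l2 (-0.13) did not pass.

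Of 18 measured genes with known AP-1 sites, 7 were called higher, 1 lower and 10 did not pass with TMM, at a median of 0.49, beside 17.2% of all genes higher and 14.4% lower. The list held 22 genes, but Mmp3, Mmp9, Mmp13 and Timp1 had no row in the deposited table. Fth1, the ferritin heavy chain, averaged 3737 ± 187 CPM in KO and 938 ± 108 CPM in WT (log2 1.99, SE 0.09, edgeR adjusted p = 2.48e-07), and was the 1 gene of the list called higher with total counts (0.86). The metallothionein gene Mt1 (1.23) and the intermediate filament gene Vim (0.81) rose with TMM, at 0.10 and -0.32 with total counts. Plaur, the urokinase receptor, fell (-0.62, SE 0.11, edgeR adjusted p = 0.00243). With total counts 11 of the 18 were called lower, at a median of -0.65, beside 70.7% of all genes. Binding was not analysed here, and these genes are listed by what is known of them elsewhere.

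**Figure D5:**
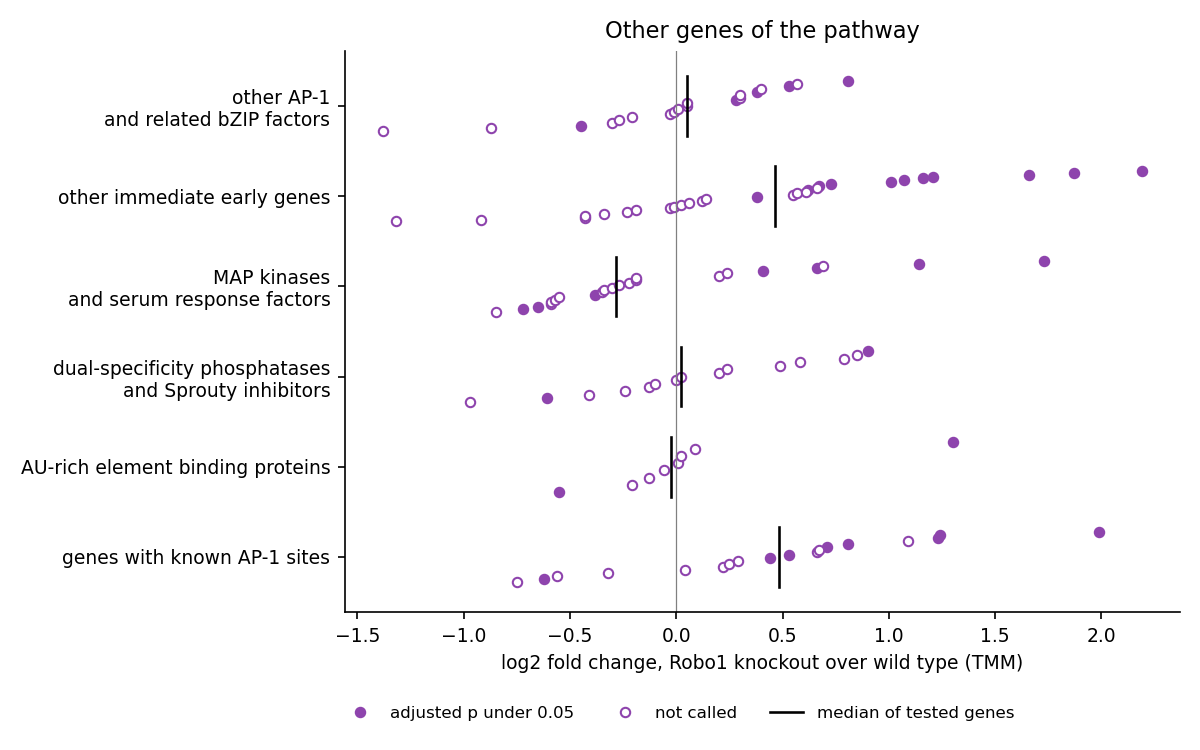
Log2 fold change of Robo1 knockout over wild type with TMM for the tested genes of 6 related lists, a point per gene (heights within a list only keep points apart), filled where the adjusted p was under 0.05, with a line at each list's median. Medians lie at 0.47 for the other immediate early genes and 0.49 for genes with known AP-1 sites, and between -0.28 and 0.05 for the other lists.

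By the distance between log2 CPM profiles over the 6 libraries, each centred on its mean, the genes nearest to Fos among 9796 were the immunoglobulin variable genes Igkv12-89 and Ighv1-55, the tubulin gene Tuba4a, the MHC gene H2-Q1 and the eosinophil peroxidase gene Epx, at distances of 0.222 to 0.315. Their log2 fold changes ran from 2.63 to 2.87, beside 2.74 for Fos. Those nearest to Jun were the glycolytic genes Ldha and Eno1b, the ATP synthase gene Atp5b, the chaperone gene Calr and the RNA-binding protein gene Hnrnpa2b1, at 0.0794 to 0.135, with log2 fold changes of 2.01 to 2.13 beside 2.07 for Jun. Fos itself was at 0.846 from Jun, in place 214 of those genes, and Jun was in place 57 from Fos. The distance is set largely by the difference between KO and WT. Similar fold changes of the nearest genes, and the places of Fos and Jun, therefore follow from how genes were ordered.

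The authors' processing notes name DESeq2 among their tools. Their deposited table gives Fos a log2 fold change of 2.74 (SE 0.08), Jun 2.08 (SE 0.06), Junb 1.89 (SE 0.10), Fosb 0.68 (SE 0.17), Atf3 0.60 (SE 0.13) and Ier2 -0.99 (SE 0.12), each with an adjusted p under 0.05 there. The same deposited table gives Dusp1 0.18, Fosl2 0.23, Egr1 -0.18 and Jund -0.01, with adjusted p-values of 0.766 to 0.979.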

How the data were processed

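The authors deposited 1 table of 18491 genes with whole read counts per gene and library, FPKM values per gene and library, and their own log2 fold changes and adjusted p-values. Per the submitters' processing notes the build was mm10 and the tools included featureCounts 2.0.1, HISAT2 2.2.1, fastp 0.22.0 and DESeq2 1.32.0, with neither roles nor options given. The header names no unit for the FPKM columns as deposited: for 800 to 803 genes with 1 annotated transcript and a mean normalized count of at least 500, at least 98.8% of values in each library lay within 1% of 1 common factor times FPKM recomputed from counts and exon length. They were used for levels only. Deposited counts were tested with edgeR 4.0.16 in R 4.3.3: filterByExpr, TMM, quasi-likelihood test, two-sided, group as the only term, Benjamini-Hochberg adjustment over 15474 genes. The SE is the log2 fold change over the square root of F. Depth per library was 42235077 to 58106099 counts. DESeq2 1.42.0, other scalings, no filter, a length and GC correction (mgcv 1.9.3), a replicate block and left-out libraries were tried. Gene IDs were matched to GENCODE vM21 (18470 matched). Promoters are from RefSeq (GRCm38.p6), and UTR sequence from GENCODE transcripts. The members and lists were chosen with earlier results of these data known. From each list the 4 genes of lowest p are named, and for Fos and Jun the 5 nearest profiles without predicted models, Rik clones and pseudogenes. The fit was tested on simulated data.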

Additional observations from a re-analysis of the deposited data

How the results depend on the processing

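Under 19 alternative settings, 13 of them planned and 6 (total counts with a library left out) chosen after seeing the data, the 10 log2 fold changes gave 190 values, of which 139 kept direction and side of the threshold, 35 changed sign and 16 kept their sign and gained a call. Calls lost numbered 3, all for Fosb with total counts and a library left out, and calls gained numbered 24, sign changes included. Fos, Jun, Junb and Ier2 kept direction and call in every one. With total counts 11592 genes were called (655 higher, 10937 lower) in place of 4898 (2669 and 2229), and 3 of the 10 genes were called higher and 6 lower in place of 5 and 1; leaving out a library as well gave 3 higher and 5 to 6 lower. With TMM and a library left out, genes called lower numbered 1356 (without WT replicate 2; 1419 without WT replicate 3) to 2142, and the members called lower were 2 without KO replicate 1. With total counts the log2 fold change was -0.46 for Fosb, -0.89 for Fosl2, -0.54 for Atf3 and -0.96 for Dusp1. Leaving out WT replicates 1, 2 and 3 and then KO replicates 1, 2 and 3 as well gave Fosb -0.57, -0.43, -0.38, -0.36, -0.52 and -0.51, and Fosl2 -0.74, -1.2, -0.68, -0.65, -1.01 and -1.06. It gave Atf3 -0.59, -0.59, -0.45, -0.62, -0.49 and -0.53, and Dusp1 -0.97, -0.92, -0.99, -1.25, -1.0 and -0.69. With TMM and a library left out Fosl2 ran from -0.08 (without WT replicate 2) to 0.46, Dusp1 from -0.14 (without KO replicate 1) to 0.46 (without KO replicate 3), and Egr1 from -0.50 (without KO replicate 1) to 0.04 (without KO replicate 3). Jund ran from -0.22 to 0.08, at 0.04 without WT replicate 1, 0.06 without KO replicate 2 and 0.08 without KO replicate 3, and stood at 0.01 with DESeq2's size factors. The cause was not tested. No ratio between genes changed sign with a library left out or a pseudocount of 0.5. For libraries of the same number, deviations from the group means correlated at 0.041, -0.0051 and 0.0477 (numbers 1, 2 and 3). Other pairs ran from -0.0755 to 0.0288. Not every library correlated best with its own number, and 3 libraries per group cannot settle whether they were paired. With the replicate number as a block 5 of the 10 genes were called higher and 1 lower, and 2467 and 1906 of all genes. Fosl2 had the lowest counts of the 10 genes, at 71 to 116 in KO and 103 to 268 in WT, and the part of low counts in its spread was not tested.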
